A study of Mus musculus with 20 samples.

Results

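Interferon response and antigen presentation genes were followed in the frontal cortex of mice that carry a disease allele of TDP-43, an RNA-binding protein mutated in amyotrophic lateral sclerosis. The 9 genes described here were chosen by name from a count table of 25965 rows: Ifit1, Ifit3, Isg15, Bst2 and Irf7, which are induced by interferon, and B2m, H2-K1, H2-D1 and Tap1, which serve MHC class I antigen presentation. Libraries came from 8 homozygous (Q331K/Q331K), 6 heterozygous (Q331K/+) and 6 wild-type (+/+) samples of C57BL/6 background at 5 months of age. The change Q331K was knocked into Tardbp itself, the gene of TDP-43, so no separate promoter drives it and it is present in every cell type that expresses the gene. The labels name separate samples of each genotype and do not say more about the animals, so each p-value reflects only the spread among these samples, which may be technical.

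Type I interferons are secreted when a cell senses foreign or misplaced nucleic acid. They bind a receptor that activates JAK kinases and, through them, transcription factors that bind interferon-stimulated response elements in the promoters of target genes. Interferons also raise MHC class I, the surface complex that shows peptides from inside the cell to CD8 T cells. In healthy brain both programmes are low, with most class I transcript in microglia and in cells of the vessels.

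The promoters of the members carry the letters of these control elements to different extents, and the stretches that hold them are shown because interferon is known to act on such genes through them. Promoters were those of RefSeq on GRCm38.p6, from 250 bases before to 50 bases after the start of each gene, and all 9 members were matched. The core of the response element was searched as GAAANNGAAA and its reverse complement TTTCNNTTTC, which 3.44% of 32851 promoters hold. It was found in 5 members, Ifit1, Ifit3, Isg15, Bst2 and B2m, and is in capitals in the lines here, where neighbouring matches in Isg15 and Bst2 overlap each other. The lines run 5′ to 3′ on the strand of the gene and reach 25 bases to either side of the matches.
Ifit1 at chr19:34640760-34640838, plus strand: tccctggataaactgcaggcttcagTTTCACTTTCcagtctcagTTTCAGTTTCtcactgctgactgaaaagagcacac
Ifit3 at chr19:34583348-34583441, plus strand: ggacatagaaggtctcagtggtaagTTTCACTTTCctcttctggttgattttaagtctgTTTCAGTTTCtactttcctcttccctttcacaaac
Isg15 at chr4:156200850-156200921, minus strand: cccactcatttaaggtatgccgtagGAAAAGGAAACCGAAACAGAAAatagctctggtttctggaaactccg
Bst2 at chr8:71537562-71537627, minus strand: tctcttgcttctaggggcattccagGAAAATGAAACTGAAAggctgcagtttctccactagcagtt
B2m at chr2:122147523-122147582, plus strand: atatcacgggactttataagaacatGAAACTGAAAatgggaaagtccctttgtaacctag

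The core of the gamma-activated site, TTCNNNGAA, which reads the same on both strands, lies in 8.30% of promoters and was found in 1 member, Bst2. Irf7, Tap1, H2-K1 and H2-D1 held neither motif in this window, which says only that these letters are not there. H2-K1 and H2-D1 are paralogs, and reads that fit both can be hard to assign. A match of letters is a description and not a measured binding site.

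Library totals ran from 61282647 to 111440766 counts, and no libraries held identical values. Some libraries stood apart in tissue markers, scored as the mean z score of log2 CPM over a list. The homozygous replicates 1, 2 and 4 and the heterozygous replicate 2 had ependymal scores over 0.5, up to 2.12, and heterozygous replicate 1 had a striatal score of 3.36. Olfactory scores were 1.25, 2.10 and 2.35 in homozygous replicates 2, 5 and 8, and at most 0.46 in wild type and −0.09 in heterozygotes. In homozygotes against wild type all 12 ependymal, 11 meningeal and 6 olfactory markers tested lay above 0. Their median log2 changes were 0.55, 0.31 and 1.13. Tardbp, the edited gene, averaged 245 ± 10.5 CPM (SD, n = 8) in homozygotes, 230 ± 7.58 CPM in heterozygotes and 218 ± 5.53 CPM in wild type (SD, n = 6 each). The log2 difference of homozygotes from wild type was 0.17 (SE 0.0294, edgeR adjusted p = 0.00372), a call lost with ependymal, olfactory and meningeal marker scores in the model (0.16, edgeR adjusted p = 0.0671). Across all genes, 261 of 16690 tested (1.56%) passed an adjusted p of 0.05 in homozygotes against wild type with edgeR.

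All 9 members passed the filter on low counts, and none passed the test in any comparison. Levels are given as CPM, counts scaled to library size. Set per kilobase of exon, so that genes can be compared, the mean level over 20 libraries was 117.6 CPM per kb for B2m, 14.5 for H2-D1 and 7.37 for H2-K1. The interferon-stimulated members followed with 3.70 CPM per kb for Ifit3, 2.13 for Bst2, 1.08 for Isg15, 1.02 for Ifit1 and 0.453 for Irf7, and Tap1 lay at 0.439. Each gene lay above the next in 20 of 20 libraries except in a pair of places. Isg15 exceeded Ifit1 in 12 of 20 libraries and Irf7 exceeded Tap1 in 9 of 20, so neither pair had a settled order. The light chain of class I was thus the most abundant member and the transcription factor Irf7 and the peptide transporter subunit Tap1 the least.

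Of 9 members, 0 were called in homozygotes against wild type, where 1.56% of all genes were called, and 0 at an unadjusted p of 0.05. Their median log2 change was −0.10, with 7 of 9 below 0, against a median of 0.0013 over all genes. Without wild-type replicate 4 the median was −0.02, with 5 of 9 below 0. In heterozygotes against wild type 0 of 9 were called, where 0% of all genes were called by edgeR, 532 (3.19%) had an unadjusted p under 0.05 and DESeq2 called 2. Their median log2 change there was 0.17, with 6 of 9 above 0. In homozygotes against heterozygotes 0 of 9 were called, where 0.108% of all genes were, the median log2 change was −0.13 and 8 of 9 lay below 0. A trend over the number of alleles called 0 of 9, against 1.83% of all genes. DESeq2 and limma voom also called 0 of 9 in each comparison. The ranges of every pair of genotypes overlapped for every member. The share of all genes with overlapping ranges was not counted, so this does not set the members apart. A missed threshold does not show equal levels, and in bulk tissue fewer cells of a type and less RNA per cell cannot be told apart.

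**Figure D1:**
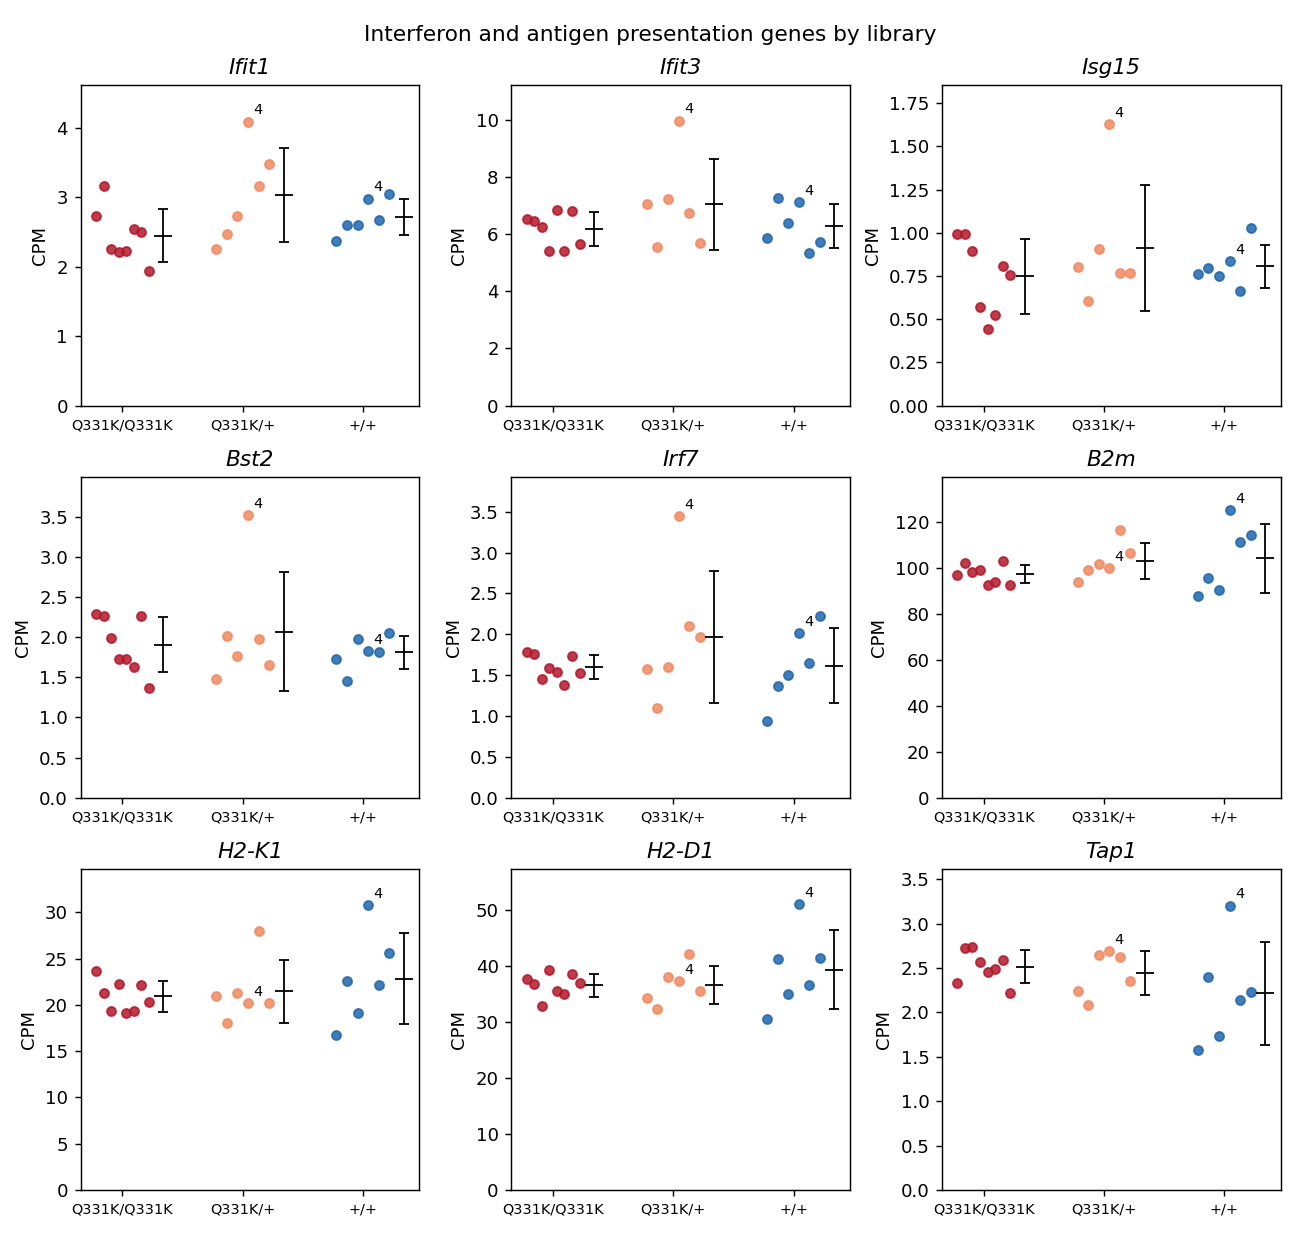
Level of each member in CPM (linear axis from 0) in 8 Q331K/Q331K, 6 Q331K/+ and 6 +/+ libraries, with the mean ± SD as black bars and replicate 4 of the Q331K/+ and +/+ groups numbered. All genotypes overlap, Q331K/+ replicate 4 is the highest point for Ifit1, Ifit3, Isg15, Bst2 and Irf7, and +/+ replicate 4 for B2m, H2-K1, H2-D1 and Tap1.

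Ifit1 and Ifit3 encode proteins with tetratricopeptide repeats, of which IFIT1 binds viral RNA that lacks a host cap and IFIT3 is its partner. Ifit1 (chromosome 19, 34640871 to 34650009, plus strand, GRCm38) had a lowest, median and highest level of 1.94, 2.38 and 3.16 CPM in homozygotes. These were 2.26, 2.95 and 4.09 CPM in heterozygotes and 2.37, 2.64 and 3.05 CPM in wild type. Heterozygotes spread widest and reached highest, and the homozygous median was the lowest of the 3 genotypes. Homozygotes averaged 2.45 ± 0.377 CPM (SD, n = 8), against 3.03 ± 0.683 CPM in heterozygotes (SD, n = 6), a log2 difference of −0.31 (SE 0.118). This was the only member with an unadjusted edgeR p under 0.05 in any comparison, at 0.0136, and its adjusted p was 0.344. Without heterozygous replicate 4 the difference was −0.21 (edgeR adjusted p = 0.42). Against wild type the log2 difference was −0.15 in homozygotes (SE 0.119, edgeR adjusted p = 0.58) and 0.17 in heterozygotes (SE 0.126, edgeR adjusted p = 1).

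Ifit3 (chromosome 19, 34583531 to 34588731, plus strand) had 5.41, 6.35 and 6.83 CPM in homozygotes as its lowest, median and highest level. Heterozygotes had 5.56, 6.90 and 9.96 CPM and wild type 5.32, 6.14 and 7.26 CPM. The heterozygous maximum lay alone, and the other 5 heterozygous libraries fell among those of the other genotypes. The log2 difference of homozygotes from wild type was −0.03 (SE 0.106, edgeR adjusted p = 0.93). Heterozygotes differed from wild type by 0.17 (SE 0.113, edgeR adjusted p = 1) and by 0.04 when replicate 4 was left out.

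Isg15 encodes a ubiquitin-like protein that is joined to other proteins during an interferon response, and Bst2 encodes tetherin, which holds budding viruses at the cell surface. Isg15 (chromosome 4, 156199424 to 156200818, minus strand) ran from 0.442 to 0.993 CPM in homozygotes with a median of 0.782 CPM. In heterozygotes it ran from 0.605 to 1.63 CPM with a median of 0.785 CPM, and in wild type from 0.662 to 1.03 CPM with a median of 0.778 CPM. The 3 medians were close, the low values were homozygous and the single high value was heterozygous. At 37 to 183 counts per library, Isg15 had the fewest counts of the members. Its log2 difference from wild type was −0.10 in homozygotes (SE 0.207, edgeR adjusted p = 0.851) and 0.19 in heterozygotes (SE 0.219, edgeR adjusted p = 1). The heterozygous difference turned to −0.07 without replicate 4.

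Bst2 (chromosome 8, 71534264 to 71537437, minus strand) had 1.37, 1.86 and 2.29 CPM in homozygotes as its lowest, median and highest level. Heterozygotes had 1.48, 1.87 and 3.52 CPM and wild type 1.46, 1.82 and 2.06 CPM. Again 1 heterozygous library lay above all others while the medians were close. The log2 difference from wild type was 0.08 in homozygotes (SE 0.158, edgeR adjusted p = 0.853) and 0.20 in heterozygotes (SE 0.169, edgeR adjusted p = 1). Without heterozygous replicate 4 the heterozygous difference was −0.02, and with scores of ependymal, olfactory and meningeal markers in the model the homozygous difference was −0.02.

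Irf7 encodes the transcription factor that amplifies type I interferon production and is itself induced by interferon. The gene (chromosome 7, 141262706 to 141266481, minus strand) shares 45 exon bases with Phrf1 on the opposite strand, and the strand setting of the counting is not given in the sources used here. Its lowest, median and highest levels were 1.38, 1.57 and 1.78 CPM in homozygotes, 1.10, 1.78 and 3.44 CPM in heterozygotes and 0.942, 1.57 and 2.22 CPM in wild type. Homozygous libraries lay within a narrow band that both other genotypes exceeded at both ends. The log2 difference from wild type was −0.02 in homozygotes (SE 0.195, edgeR adjusted p = 0.978) and 0.29 in heterozygotes (SE 0.207, edgeR adjusted p = 1). The heterozygous value was 0.04 without replicate 4. The log2 difference of homozygotes from heterozygotes was −0.31 (SE 0.193, edgeR adjusted p = 0.573), and −0.06 without that library.

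**Figure D2:**
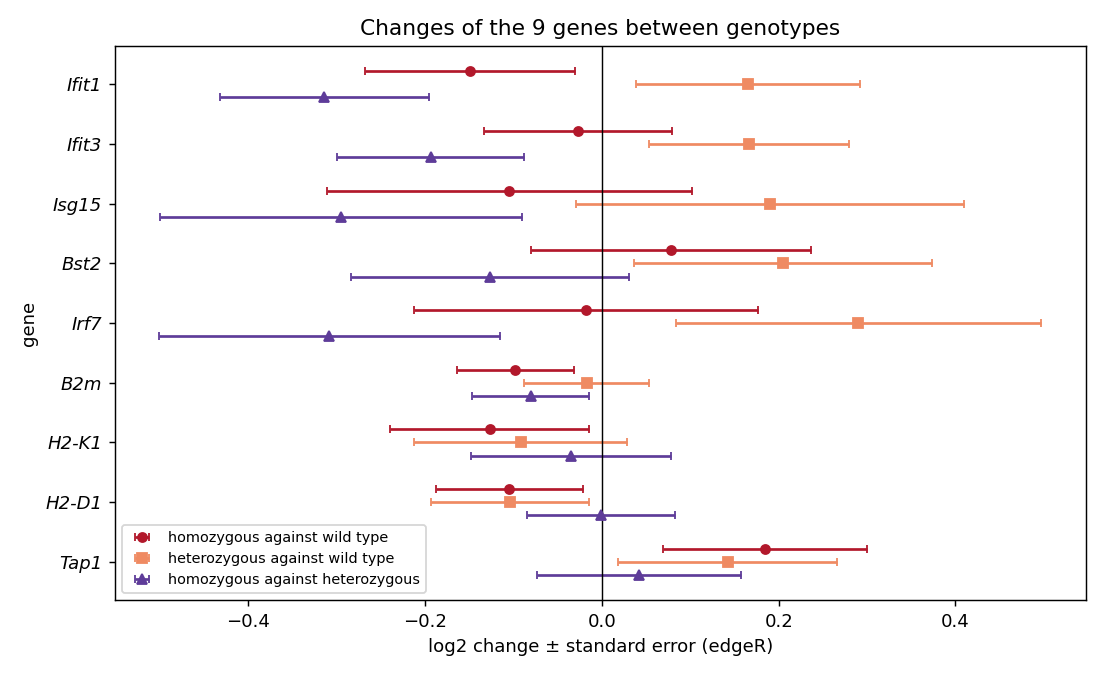
Log2 change ± standard error from edgeR of each member for homozygous against wild type, heterozygous against wild type and homozygous against heterozygous, with 0 as a line. No change passed the test, and the 5 interferon-stimulated genes at the top lie above 0 in heterozygotes against wild type and below 0 in homozygotes against heterozygotes, values that lie nearer 0 or turn sign without heterozygous replicate 4.

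The class I members had the highest mean in wild type for B2m, H2-K1 and H2-D1 and in homozygotes for Tap1, with no difference that passed the test. B2m encodes beta-2-microglobulin, the light chain of every class I complex. The gene (chromosome 2, 122147686 to 122153083, plus strand) lies in part across Patl2 on the opposite strand with 0 shared exon bases. It averaged 97.4 ± 4.08 CPM in homozygotes (SD, n = 8), 103 ± 7.84 CPM in heterozygotes and 104 ± 15.0 CPM in wild type (SD, n = 6 each). Homozygous libraries ran from 92.5 to 103 CPM, heterozygous ones from 93.9 to 117 CPM and wild-type ones from 88.1 to 125 CPM. The wild-type range enclosed both other ranges. The log2 difference from wild type was −0.10 in homozygotes (SE 0.066, edgeR adjusted p = 0.502) and −0.02 in heterozygotes (SE 0.0707, edgeR adjusted p = 1). The homozygous difference was −0.04 without wild-type replicate 4 and −0.14 without wild-type replicate 1.

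H2-K1 and H2-D1 encode classical class I heavy chains, which hold the peptide. H2-K1 (chromosome 17, 33996017 to 34000333, minus strand) had 19.1, 20.8 and 23.6 CPM in homozygotes as its lowest, median and highest level. Heterozygotes had 18.1, 20.6 and 28.0 CPM and wild type 16.8, 22.4 and 30.8 CPM. H2-D1 (chromosome 17, 35262730 to 35267499, plus strand) had 32.8, 36.8 and 39.2 CPM in homozygotes, 32.3, 36.3 and 42.0 CPM in heterozygotes and 30.5, 38.9 and 51.0 CPM in wild type. For both genes the wild-type libraries held both the lowest and the highest value of the 20. The log2 differences of homozygotes from wild type were −0.13 for H2-K1 (SE 0.112) and −0.10 for H2-D1 (SE 0.083), with edgeR adjusted p = 0.627 and 0.58. In heterozygotes they were −0.09 for H2-K1 and −0.10 for H2-D1 (edgeR adjusted p = 1 for both). Without wild-type replicate 4 the homozygous differences were −0.02 for H2-K1 and −0.02 for H2-D1, and without wild-type replicate 1 they were −0.20 and −0.17.

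Tap1 encodes a subunit of the transporter that carries peptides into the endoplasmic reticulum for loading. The gene (chromosome 17, 34187553 to 34197225, plus strand) shares 212 exon bases with Psmb9, a subunit of the immunoproteasome, on the opposite strand. Its levels were 2.22, 2.53 and 2.74 CPM in homozygotes, 2.08, 2.49 and 2.70 CPM in heterozygotes and 1.58, 2.18 and 3.20 CPM in wild type, as lowest, median and highest. It was the class I member whose mean was highest in homozygotes. The log2 difference from wild type was 0.18 in homozygotes (SE 0.115, edgeR adjusted p = 0.458) and 0.14 in heterozygotes (SE 0.123, edgeR adjusted p = 1). Without wild-type replicate 4 the homozygous difference was 0.32 (edgeR adjusted p = 0.0962), and without wild-type replicate 1 it was 0.10 (edgeR adjusted p = 0.735).

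The spread within genotypes had an order of its own for the class I members. The coefficient of variation of B2m was 4.18% in homozygotes, 7.61% in heterozygotes and 14.3% in wild type. For H2-K1 it was 7.94% in homozygotes, 15.8% in heterozygotes and 21.7% in wild type. H2-D1 had 5.58%, 9.26% and 18.0% and Tap1 7.24%, 10.3% and 26.0% in the same order of genotypes. All 4 spread least in homozygotes and most in wild type, and the difference in spread was not tested. Without wild-type replicates 1 and 4, left out after seeing the data, H2-K1 and H2-D1 spread most in heterozygotes, and H2-D1 then had 8.59% in wild type. The interferon-stimulated members Ifit1, Ifit3, Isg15, Bst2 and Irf7 spread most in heterozygotes, from 22.5% for Ifit1 to 41.0% for Irf7. Without heterozygous replicate 4, also left out after seeing the data, Ifit1 alone of the 5 still spread most in heterozygotes, at 17.6%. The heterozygous spread was then 14.0% for Isg15 and 12.7% for Bst2, below 28.7% and 18.1% in homozygotes. For Irf7 it was 23.6%, below 28.5% in wild type, and Ifit3 also spread most in wild type, at 12.4%.

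The same few libraries were highest or lowest for many members. Heterozygous replicate 4 had the highest of the 20 levels for all 5 interferon-stimulated members, and wild-type replicate 4 had the highest for all 4 class I members. Heterozygous replicate 4 held 4.09 CPM of Ifit1, 9.96 CPM of Ifit3, 1.63 CPM of Isg15, 3.52 CPM of Bst2 and 3.44 CPM of Irf7. These levels were 1.55 to 2.16 times the median of the 20 libraries. The same library had 100.1 CPM of B2m, 20.2 CPM of H2-K1 and 37.2 CPM of H2-D1, within the range of the other heterozygous libraries, and 2.70 CPM of Tap1, the highest of its genotype. Its high interferon-stimulated genes were therefore not matched by high class I light and heavy chains.

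Wild-type replicate 4 was high in the class I members. It held 125 CPM of B2m, 30.8 CPM of H2-K1, 51.0 CPM of H2-D1 and 3.20 CPM of Tap1, which were 1.26 to 1.46 times the median of the 20 libraries. Its Isg15 was 0.835 CPM and its Bst2 1.83 CPM, near the medians of those genes, while its Ifit3 was 7.11 CPM and its Irf7 2.01 CPM, among the higher values of the 20. Wild-type replicate 1 had the lowest level of the 20 libraries for B2m, H2-K1, H2-D1 and Tap1 and also for Irf7, at 0.942 CPM. The widest range of class I levels was thus between libraries of the same genotype.

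**Figure D3:**
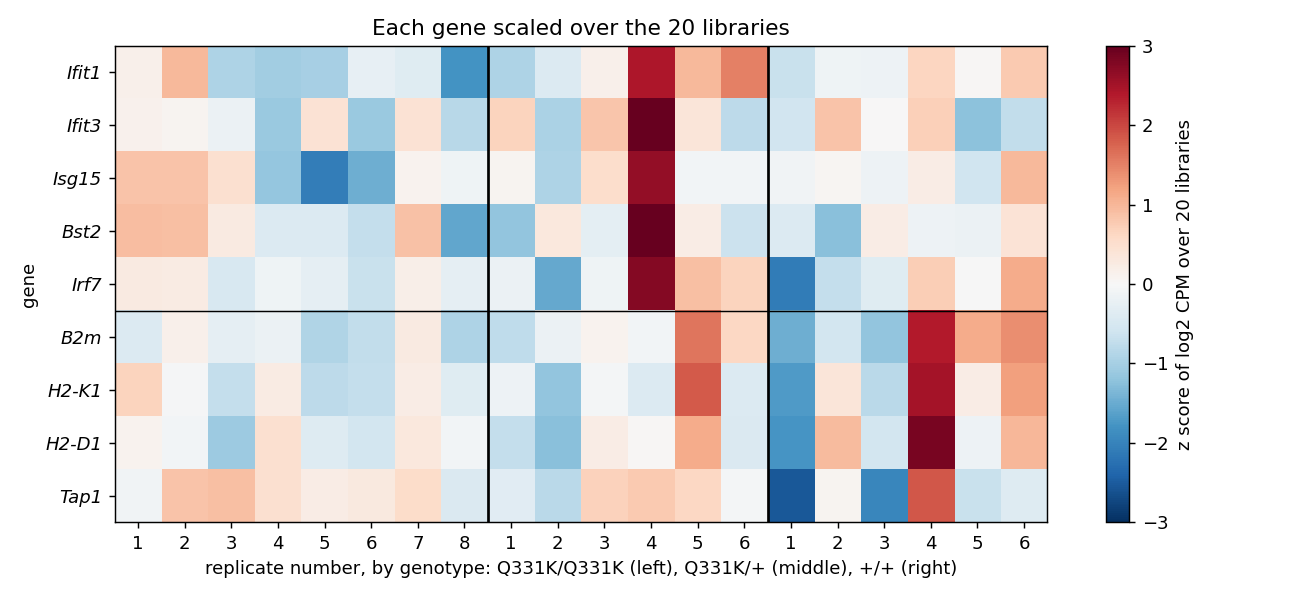
Level of each member in each of the 20 libraries as a z score of log2 CPM (colour, red above and blue below the gene's mean), with homozygous libraries on the left, heterozygous in the middle and wild type on the right. Heterozygous replicate 4 is red in the 5 upper rows and pale in those of B2m, H2-K1 and H2-D1, while wild-type replicate 4 is deepest red in the 4 lower rows and wild-type replicate 1 is blue there.

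Leaving out heterozygous replicate 4 the median log2 change of the members in heterozygotes against wild type was −0.0085, with 4 of 9 above 0. It was 0.20 without wild-type replicate 4, with 8 of 9 above 0, and 0.13 without wild-type replicate 1, with 6 of 9 above 0. In homozygotes against heterozygotes the median without heterozygous replicate 4 was −0.05, with 6 of 9 below 0. The median in homozygotes against wild type was −0.02 without wild-type replicate 4, with 4 of 9 above 0, and −0.13 without wild-type replicate 1, with 2 of 9 above 0. None of the members was called without any single library.

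Cell type markers were set beside these libraries by the mean z score of log2 CPM of each list. Heterozygous replicate 4 ranked 17 of 20 for 16 microglia markers with a score of −0.52, 13 for 11 endothelial markers with −0.19 and 19 for the T, NK and B cell markers with −1.02, of which 4 of 14 passed the filter. It ranked 3 of 20 for 7 border macrophage markers, with a score of 0.78. The summed level of the border macrophage markers was 11.1 CPM there, the highest of heterozygotes. Homozygotes had 7.94 to 12.7 CPM and wild type 6.60 to 11.4 CPM. Heterozygous replicate 4 ranked 7 of 20 for 11 meningeal markers, with a score of 0.44. Their summed level of 130 CPM there was also the highest of heterozygotes. The microglia, endothelial and lymphocyte markers of this library were therefore not high. The part of border macrophages and meningeal cells in its interferon-stimulated levels was not tested. Wild-type replicate 4 ranked 7 of 20 for microglia markers with a score of 0.16 and 7 for endothelial markers with 0.44. It ranked 4 for border macrophage markers with 0.61, 4 for mural markers with 0.51 and 5 for meningeal markers with 0.57. Its summed levels of 224 CPM for mural and 138 CPM for meningeal markers were the highest of wild type. The part of these cells in its class I levels was not tested. Wild-type replicate 1, lowest for class I, scored −0.79 for microglia, −1.37 for endothelial cells, −1.54 for mural cells and −2.08 for meningeal cells.

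Several pairs of members within each class were correlated over the 20 libraries once genotype means were subtracted. Fewer of these pairs passed by rank or without the libraries farthest out. Pairs drawn from all genes were not set beside them. Of 36 pairs of members, 17 had a correlation of genotype-centred log2 CPM over 20 libraries that passed an adjusted p of 0.05 in a two-sided permutation test within genotypes. These were 7 of 10 pairs of interferon-stimulated genes, 6 of 6 pairs of class I genes and 4 of 20 pairs between the classes. By Spearman rho 9 of 36 passed, which were 2 of 10 interferon pairs, 3 of 6 class I pairs and 4 of 20 between the classes. H2-K1 and H2-D1 had the highest correlation, with Pearson r = 0.93 and Spearman rho = 0.89 (permutation p = 1e-05 for each, the smallest that the resamples can give, adjusted p = 0.00036). It was 0.89 without the 2 libraries farthest from the median of the first gene named, the rule kept for every pair. Reads that fit both paralogs could add to this value, and their part was not tested. B2m and H2-K1 followed with r = 0.84 and rho = 0.72 (permutation p = 0.0002 and 0.00182, adjusted p = 0.00252 and 0.0164), and r = 0.70 without the 2 farthest libraries.

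Among the interferon-stimulated members, Ifit1 and Irf7 had the highest correlation, with r = 0.75 and rho = 0.80 (permutation p = 0.00021 and 0.00026, adjusted p = 0.00252 and 0.00468). It was 0.68 without the 2 farthest libraries and 0.64 without heterozygous replicate 4. Most other pairs of this class rested on that library. Without it, 1 of 10 interferon pairs passed in place of 7, and the median r was 0.36 in place of 0.59. Ifit1 and Ifit3, whose genes lie near each other on chromosome 19, had r = 0.39 and rho = 0.27 (permutation p = 0.176 and 0.29, adjusted p = 0.235 and 0.348) with all libraries and r = 0.07 without it. For the class I pairs, 6 of 6 passed with and without that library, with a median r of 0.80 and 0.81, but without wild-type replicate 4 as well, 3 of 6 passed. Without the 2 libraries farthest out in the first gene of each pair, 1 of 10 interferon pairs, 2 of 6 class I pairs and 3 of 20 between the classes passed. Libraries far out in the second gene only were kept there.

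The pairs between the classes that passed were those of Irf7 with H2-D1 and Tap1 and of Ifit1 with B2m and Tap1. Of these, Ifit1 with B2m alone also passed without the 2 farthest libraries. Ifit1 and B2m had r = 0.48 and rho = 0.60 (permutation p = 0.00965 and 0.00319, adjusted p = 0.0316 and 0.0191), and r = 0.62 both without the 2 farthest libraries and without heterozygous replicate 4 (permutation adjusted p = 0.0175 and 0.00612). Ifit1 and Tap1 had r = 0.47 and rho = 0.49 (permutation p = 0.00759 and 0.0318, adjusted p = 0.0273 and 0.0716). Their r was 0.44 without the 2 farthest libraries (permutation adjusted p = 0.0948). Irf7 and Tap1 had r = 0.58 and rho = 0.46 (permutation p = 0.0185 and 0.0744, adjusted p = 0.0444 and 0.122). Their r was 0.58 without the 2 farthest libraries (permutation adjusted p = 0.205). The correlation of Irf7 with H2-D1 was r = 0.63 and rho = 0.65 (permutation p = 0.0123 and 0.00847, adjusted p = 0.0362 and 0.0436). It was 0.73 without the 2 farthest libraries (permutation adjusted p = 0.0867). With H2-K1 it was r = 0.59 and rho = 0.66 (permutation p = 0.027 and 0.00312, adjusted p = 0.054 and 0.0191) over all libraries. With B2m it was r = 0.57 and rho = 0.72 over all libraries (permutation p = 0.031 and 0.00168, adjusted p = 0.0587 and 0.0164). Without heterozygous replicate 4, left out after seeing the data, r was 0.82 with H2-K1 and 0.78 with B2m (permutation adjusted p = 0.00876 and 0.0116). That library was picked for its high interferon-stimulated genes, and its class I chains were not high. Its omission therefore raises these correlations of Irf7, and the higher values are a description and not a test.

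**Figure D4:**
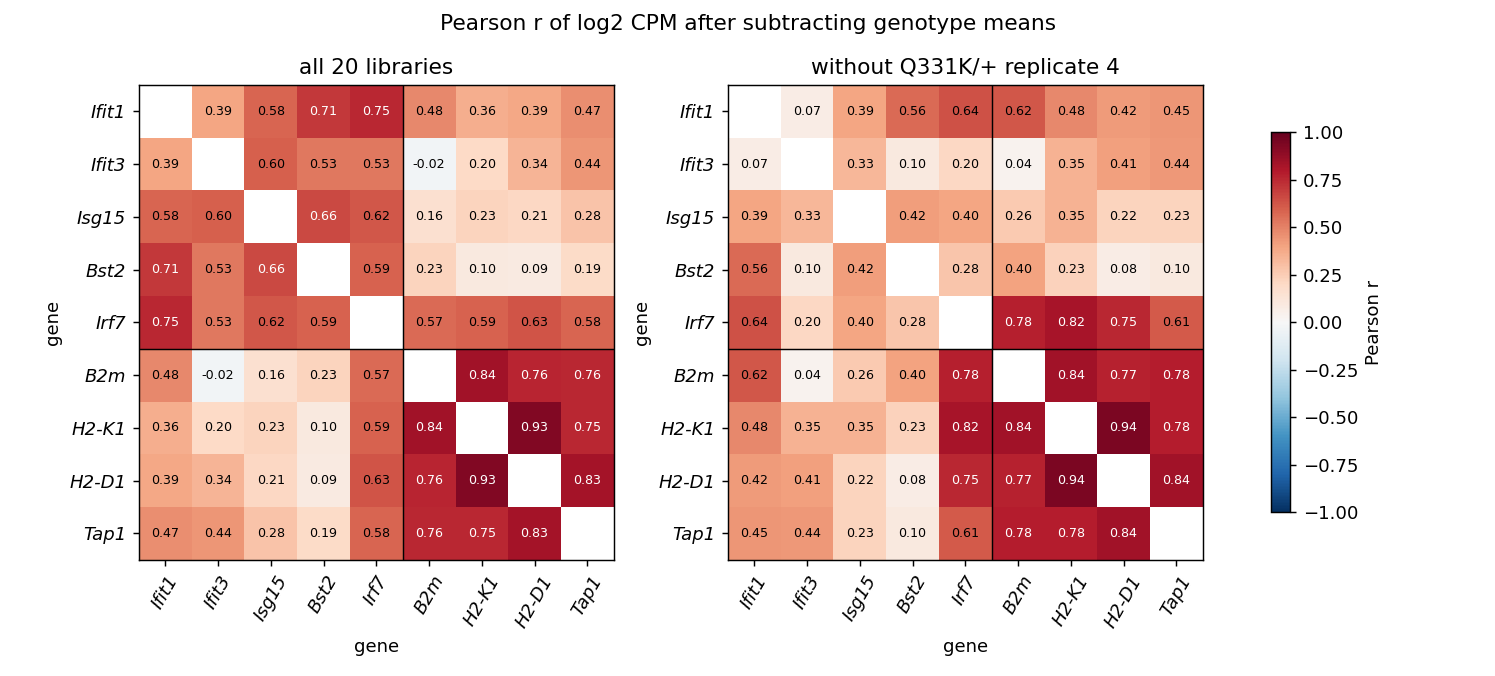
Pearson r of log2 CPM after subtracting genotype means for each pair of members over all 20 libraries (left) and without heterozygous replicate 4 (right), with black lines between the interferon-stimulated and the class I genes. The lower right block of class I pairs keeps values of 0.75 or more in both panels. Without that library, picked after seeing the data, the upper left block of interferon pairs falls to a median of 0.36 and Irf7 rises with H2-K1 to 0.82.

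Of the class I members, B2m and H2-K1 had relations with cell type scores that passed by Pearson r, while H2-D1 and Tap1 had none. In 27 relations of the 9 members with microglia, endothelial and ependymal scores, chosen after the data were seen, 3 passed adjustment by Pearson r, 1 of them by Spearman rho as well. B2m had r = 0.63 and rho = 0.70 with the microglia score (permutation p = 0.00019 and 0.00071, adjusted p = 0.00513 and 0.0192), and 0.63 without the 2 farthest libraries. With the endothelial score, r was 0.71 for B2m (rho = 0.62, permutation p = 0.00257 and 0.013, adjusted p = 0.0347 and 0.104). For H2-K1 and the endothelial score, r was 0.68 (rho = 0.65, permutation p = 0.00439 and 0.00652, adjusted p = 0.0395 and 0.088). These were 0.58 and 0.49 without the 2 farthest libraries. In the relations with scores, the 2 libraries left out were those farthest from the median of the score. None of the 15 relations of Ifit1, Ifit3, Isg15, Bst2 and Irf7 passed. With microglia and endothelial scores as covariates, 0 of 9 members were called in any comparison of genotypes.

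The genes most alike in pattern were taken over 20 libraries by Pearson r of genotype-centred log2 CPM, as a description. To the mean z score of Ifit1, Ifit3, Isg15 and Irf7 these included Oasl2 (r = 0.82), of the oligoadenylate synthetase family, Ddx58 (0.82), which encodes the RNA sensor RIG-I, Lgals3bp (0.76) and Rtp4 (0.71). Without heterozygous replicates 2 and 4, the 2 farthest libraries, the values were 0.64, 0.71, 0.70 and 0.51 in that order. In heterozygous replicate 4, Oasl2 had 5.75 CPM and Rtp4 2.49 CPM, each the highest of the 20 libraries. These 4 genes belong to the lists of interferon genes used below.

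To the mean z score of B2m, H2-K1, H2-D1 and Tap1, the genes most alike were Pdgfrb (r = 0.86), the receptor that marks pericytes, the class I heavy chain H2-Q4 (0.86), the interferon-induced GTPase Iigp1 (0.84), Psmb9 (0.81) and Pear1 (0.81). Without wild-type replicates 1 and 4 the values were 0.72, 0.73, 0.55, 0.58 and 0.70 in that order. Psmb9 shares exon bases with Tap1, and H2-Q4 is a paralog of H2-K1 and H2-D1. Wild-type replicate 4 had 6.44 CPM of H2-Q4 and 3.54 CPM of Iigp1, the highest of the 20 libraries for each, while for Pdgfrb the highest was heterozygous replicate 5 at 30.0 CPM. Wild-type replicate 1 was the lowest of 20 for H2-Q4, Iigp1, Psmb9, Pdgfrb and Pear1.

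Other genes of the pathway were followed in 7 lists with 127 names, of which 119 were tested. In homozygotes against wild type 1 of 119 was called, H2-T22, where 1.56% of all genes were. Unadjusted, 12 lay below 0 and 2 above 0 at p under 0.05, and the median log2 change was −0.01. These 14 were 11.8% of the list, against 16.1% of all genes. Without wild-type replicate 4 the median was 0.05, and without wild-type replicate 1 it was −0.04. None was called in heterozygotes against wild type or in homozygotes against heterozygotes by edgeR, DESeq2 or limma voom. In heterozygotes against wild type 2 had an unadjusted p under 0.05 (1.68%, against 3.19% of all genes). In homozygotes against heterozygotes 16 did (13.45%, against 11.01% of all genes). The trend over alleles called 2 of 119, H2-T22 and Irf2, both lowered with the number of alleles, where 1.83% of all genes were called. Calls of 1 and 2 genes do not set the list apart from all genes, and no difference in share was tested.

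H2-T22 encodes a class Ib heavy chain of the H2-T region. It had 15.2, 17.9 and 18.7 CPM in homozygotes as its lowest, median and highest level, 16.9, 18.9 and 20.8 CPM in heterozygotes and 17.6, 20.7 and 21.2 CPM in wild type. Homozygous libraries lay below 5 of 6 wild-type libraries, and wild-type replicate 1 fell among them. The log2 change of −0.20 (SE 0.0499) passed at edgeR adjusted p = 0.0419. It was called in 7 of 20 fits that left out 1 library, with edgeR adjusted p from 0.0145 to 0.107. The call was lost without any 1 of wild-type replicates 2, 3, 4, 5 and 6, heterozygous replicates 2 and 4, and homozygous replicates 3, 4, 5, 6, 7 and 8. It was also lost when only the compared genotypes were fitted (edgeR adjusted p = 0.0569) and with the replicate block (edgeR adjusted p = 0.0616). With ependymal, olfactory and meningeal scores in the model the change was −0.31 (edgeR adjusted p = 0.0116). The gene has close paralogs and shares 1003 exon bases with the antisense gene A930015D03Rik, so its reads are uncertain.

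Irf2, a repressor of interferon-stimulated genes that competes for their response elements, averaged 29.9 ± 1.81 CPM in homozygotes (SD, n = 8), 31.9 ± 2.08 CPM in heterozygotes and 33.7 ± 1.92 CPM in wild type (SD, n = 6 each). Its change per allele was −0.09 on the log2 scale (SE 0.0221, edgeR adjusted p = 0.0423), and homozygotes against wild type gave −0.17 (edgeR adjusted p = 0.0519). That difference passed with DESeq2 (adjusted p = 0.0168), with the replicate block (−0.20, edgeR adjusted p = 0.0228), with 1 CPM in 6 libraries (edgeR adjusted p = 0.0478) and with microglia and endothelial scores (edgeR adjusted p = 0.0428). With ependymal, olfactory and meningeal scores in the model the difference was −0.15 and did not pass (edgeR adjusted p = 0.298). The trend call was lost with limma voom, with those marker scores and without the 4 libraries of ependymal score over 0.5. The trend was called in 8 of 20 fits that left out 1 library. It was lost without any 1 of wild-type replicates 1, 3, 5 and 6, heterozygous replicates 2 and 4, and homozygous replicates 1 to 6. For H2-T22 the trend was called in 14 of 20 such fits and lost without any 1 of wild-type replicates 2, 3, 5 and 6 and homozygous replicates 3 and 6.

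Of the receptor and signalling genes, 0 of 18 were called in homozygotes against wild type. Ifnar2, a subunit of the type I interferon receptor, averaged 16.8 ± 0.595 CPM in homozygotes (SD, n = 8) and 15.3 ± 0.745 CPM in wild type (SD, n = 6). The log2 difference of 0.13 (edgeR adjusted p = 0.0953) passed with DESeq2 (adjusted p = 0.0474). With ependymal, olfactory and meningeal scores in the model it was 0.12 and did not pass (edgeR adjusted p = 0.311). Ifnar2 shares 315 exon bases with Gm21970 on the same strand. The kinase gene Jak2 averaged 48.4 ± 4.11 CPM in homozygotes (SD, n = 8) and 53.7 ± 2.03 CPM in wild type (SD, n = 6), a log2 difference of −0.15 (edgeR adjusted p = 0.0974). Jak2 passed with the ependymal, olfactory and meningeal scores in the model, where the difference was −0.25 (edgeR adjusted p = 0.0233), and without the 4 libraries of ependymal score over 0.5 (−0.17, edgeR adjusted p = 0.0406).

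Of the sensors and their adaptors, 0 of 14 were called. Traf3, which relays signals to interferon production, had a log2 difference of −0.14, Ticam1, the adaptor TRIF, −0.18 and Tmem173, the DNA sensing adaptor STING, 0.11 (edgeR adjusted p = 0.243, 0.261 and 0.446). Among 39 tested effectors 0 were called. The values nearest the threshold were −0.28 for Slfn2, 0.10 for Samhd1, which depletes nucleotides needed by viruses, and −0.19 for Slfn5 (edgeR adjusted p = 0.221, 0.232 and 0.261). None of these values passed adjustment.

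The interferon-induced GTPases, which attack the vacuoles of pathogens, had 0 of 14 called in each comparison. Their log2 changes in heterozygotes against wild type had a median of 0.15 with 13 of 14 above 0, and 0.08 with 9 of 14 above 0 without heterozygous replicate 4. Without wild-type replicate 4 the median was 0.35 with 14 of 14 above 0, and without wild-type replicate 1 it was 0.07 with 11 of 14 above 0. Heterozygous replicate 4 and wild-type replicates 1 and 4 were picked after seeing the data. In homozygotes against wild type the log2 difference was 0.14 for Gbp9, −0.12 for Gbp3 and −0.05 for Irgm1 (edgeR adjusted p = 0.595, 0.68 and 0.708). Of 39 effectors, 30 lay above 0 in heterozygotes against wild type, where the median over all genes was 0.0017. Above 0 were 25 of 39 without heterozygous replicate 4, 32 of 40 without wild-type replicate 4 and 27 of 40 without wild-type replicate 1. The value of the GTPase list thus moved with both heterozygous and wild-type replicate 4.

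In the machinery that trims and loads peptides, 0 of 12 genes were called in homozygotes against wild type. Psmb10, a subunit of the immunoproteasome, had a log2 difference of −0.12, Psme1, of its activator, 0.09 and the chaperone gene Calr −0.08 (edgeR adjusted p = 0.171, 0.315 and 0.572). Of the other class I chains, 1 of 13 was called, H2-T22, while H2-T23 lay at −0.13 and Mr1, which presents metabolites of vitamins, at 0.13 (edgeR adjusted p = 0.21 and 0.393). The median log2 change over these 13 chains was −0.05. It was 0.07 without wild-type replicate 4, with 9 of 13 above 0, and −0.11 without wild-type replicate 1.

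Class II genes, which serve presentation to CD4 T cells, had 0 of 9 called. Cd74, the invariant chain, ran from 2.24 to 3.83 CPM in homozygotes, from 2.02 to 3.08 CPM in heterozygotes and from 1.84 to 8.89 CPM in wild type. The highest value was that of wild-type replicate 4, the library with the highest class I levels, and the other 5 wild-type libraries reached at most 3.00 CPM. H2-Eb1 had 2.93 CPM in that library, the highest of the 20. Without it the log2 difference of homozygotes from wild type was 0.33 for Cd74 and 0.15 for H2-Eb1 (edgeR adjusted p = 0.203 and 0.729), against −0.22 and −0.25 with it. H2-DMa, which edits class II peptides, differed by −0.06 (edgeR adjusted p = 0.531).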

How the data were processed

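RNA-seq counts from 20 frontal cortex samples, 8 Q331K/Q331K, 6 Q331K/+ and 6 +/+, were analysed. The deposited values are raw whole-number counts per gene in 1 table of 25965 rows, of which 56 had no gene identifier. The libraries were stranded and started from polyadenylated RNA, per the labels' protocols. HISAT2 2.0.5, Trim Galore 0.4.3 and the build GRCm38 are named in the submitters' processing notes. Which program counted the reads, with which annotation and strand setting, is not given in the sources used here.

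The test was edgeR 4.0.16 (R 4.3.3; TMM, filterByExpr, robust quasi-likelihood) in 1 fit of 20 libraries. The filter left 16690 genes, over which p-values were adjusted (Benjamini-Hochberg, threshold 0.05). Correlations used log2 CPM (prior count 2) less the genotype mean, with 100000 permutations within genotypes. The fit was tested on simulated data. The members and lists were chosen with earlier results of these data known. The text names all 9 members, each called gene of a list, up to 3 genes per list of smallest p at 1 CPM or more, and the 5 genes most alike to each class, of which 1 is not reported here. Alternatives were DESeq2 1.42.0, its size factors, no filter, 1 CPM in 6 libraries, a replicate block, only the genotypes compared, limma voom (limma 3.58.1), marker scores as covariates, and libraries left out.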

Additional observations from a re-analysis of the deposited data

Results flagged for a closer look

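Single libraries that lay far from the others of their genotype, by Dixon's criterion for groups of 6 and 8 (critical values 0.625 and 0.526), were listed for the members, the named pathway genes and Tardbp. Chance alone marks about 1 in 20 groups. Heterozygous replicate 4 was set apart by its high Isg15 (1.63 CPM), Bst2 (3.52 CPM) and Irgm1 (10.6 CPM) and by the lowest Tardbp of its genotype (215 CPM). Over all genes, this library was the far highest of its genotype for 126 of 16690 (0.755%), and among the 119 other pathway genes for 6 (5.04%), namely Ifitm3, Oasl2, Usp18, Trim30a, Irgm1 and Jak1.

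Wild-type replicate 4 was set apart by its high Cd74 (8.89 CPM). It was the far highest of its genotype for 107 of 16690 genes (0.641%) and for 9 of 119 pathway genes (7.56%), namely Rsad2, Iigp1, Tgtp1, H2-Q6, H2-Q7, H2-M3, H2-Aa, H2-Ab1 and Cd74. Heterozygous replicate 5 was set apart by its high H2-K1 (28.0 CPM) and Ifnar2 (17.3 CPM). H2-T22 was far lowest in homozygous replicate 6 (15.2 CPM) and in wild-type replicate 1 (17.6 CPM). H2-DMa was far lowest in homozygous replicate 1 (8.60 CPM), and Traf3 far highest in homozygous replicate 7 (71.8 CPM).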

How the results depend on the processing

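No member was called in any comparison under any alternative run, and the limits are these: the members have 37 to 11252 counts per library, their spread rests on single libraries, and the causes of the changes given here were not tested. All genes called in homozygotes against wild type numbered 261, against 638 with DESeq2, 87 with ependymal, olfactory and meningeal marker scores, 436 with microglia and endothelial scores, and 115 (without wild-type replicate 6) to 314 (without homozygous replicate 7) without single libraries. In heterozygotes against wild type DESeq2 called 2 and edgeR 0. Homozygotes against heterozygotes had 18, against 103 with DESeq2, 11 with no filter, 2 with the tissue scores, 39 with microglia and endothelial scores, and 5 (without heterozygous replicate 2) to 31 (without homozygous replicate 2) without single libraries. The trend had 306, against 696 with DESeq2, 74 with the tissue scores, 537 with microglia and endothelial scores, 193 without the 4 libraries of ependymal score over 0.5, and 159 (without wild-type replicate 5) to 436 (without wild-type replicate 4) without single libraries.

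Other pathway genes called in homozygotes against wild type numbered 1, against 3 with DESeq2, 2 with 1 CPM in 6 libraries, 0 with only the genotypes compared, 2 with the tissue scores, 2 with microglia and endothelial scores, 2 without the libraries of ependymal score over 0.5 and 0 to 2 without single libraries. For the trend they numbered 2, against 4 with DESeq2, 1 with limma voom and 0 to 2 without single libraries. The labels do not say whether equal replicate numbers pair the samples. Over 18 same-numbered pairs r ran from −0.10 to 0.14, with 1 over 0.1. Pairs of unequal number were not set beside these, so shared litters or batches were not tested. All genes called in homozygotes against wild type numbered 387 with a replicate block, against 261 without it. With the replicate block 3 other pathway genes were called in homozygotes against wild type (Irf2, Tyk2 and Traf3) and 1 in the trend, and the log2 change of Irf7 was 0.021. The block left 0 members called.

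Pairs of members past the threshold numbered 17, against 6 without the 2 libraries farthest from the median of the first gene of each pair. They numbered 11 without heterozygous replicate 4 and 8 without it and wild-type replicate 4, the last 2 chosen after seeing the data. Changes of sign were among values that passed no test. In homozygotes against wild type Bst2 was −0.023 with the tissue scores in the model and −0.0069 without the 4 libraries of high ependymal score, Irf7 was 0.039 and Cd74 0.0070 with limma voom. In homozygotes against heterozygotes Tap1 was −0.0071 without the libraries of ependymal score over 0.5. H2-D1 there was 0.00045 with DESeq2, 0.00013 with its size factors, 0.00011 with no filter, 0.00050 with 1 CPM in 6 libraries, 0.0062 with limma voom and 0.015 with microglia and endothelial scores. Without single libraries, the log2 change of homozygotes from wild type ran from −0.071 to 0.019 for Ifit3, −0.13 to 0.096 for Irf7, −0.40 to 0.15 for H2-Eb1 and −0.35 to 0.33 for Cd74. That of heterozygotes from wild type ran from −0.070 to 0.29 for Isg15, −0.022 to 0.28 for Bst2, −0.063 to 0.040 for B2m and −0.18 to 0.010 for H2-K1. That of homozygotes from heterozygotes ran from −0.20 to 0.10 for Bst2, −0.079 to 0.057 for H2-K1 and −0.034 to 0.044 for H2-D1.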
